A study of Mus musculus with 6 samples.

Results

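The genes described here set the brake and the throttle of the G1 phase of the cell cycle in mouse chondrocytes, the cells that build and maintain cartilage. They are the D cyclins Ccnd1, Ccnd2 and Ccnd3, the inhibitors of cyclin-dependent kinases (CDKs) Cdkn1a, Cdkn1b, Cdkn2a, Cdkn2b and Cdkn2c, and the p53 targets Mdm2 and Zmat3. They were taken by name from a count table of 23867 genes. All 10 were in the table, and all 10 passed the filter on low counts among 15028 genes tested.

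Libraries of 2 groups were compared, with 3 libraries each. The knockout libraries carry the genotype label MFN2Col2a1-/-, which joins a deletion of Mfn2, the gene of the mitochondrial fusion protein mitofusin 2, to the cartilage collagen gene Col2a1. Their columns are named CRE1, CRE2 and CRE3. The controls are labelled MFN2wt and are called wild type here (WT1, WT2 and WT3). The labels do not spell out the alleles, the promoter that drives Cre, the age of the mice, or whether each library came from its own animal, a pool or a culture. The p-values therefore measure only the spread between these libraries, which may be technical.

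D cyclins bind and activate CDK4 and CDK6, which phosphorylate the retinoblastoma protein and release E2F factors for entry into S phase. Inhibitors of the CIP/KIP family (p21 from Cdkn1a, p27 from Cdkn1b) bind several cyclin-CDK pairs, and inhibitors of the INK4 family (p16 from Cdkn2a, p15 from Cdkn2b, p18 from Cdkn2c) bind CDK4 and CDK6. The transcription factor p53 induces Cdkn1a, Mdm2 and Zmat3 after DNA damage and other stress, and the MDM2 protein in turn marks p53 for degradation. In cartilage, p21 and p27 family inhibitors accompany the exit of growth-plate chondrocytes from division, and p16 and p21 are widely used as signs of senescence in ageing joints.

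The libraries held 31481779 to 37814723 counts for the knockout, with 39267487 to 40152687 for the wild type. CRE1 stood apart from the other knockout libraries. Its chi-square per degree of freedom was 8.09 against CRE2 and 7.63 against CRE3, where CRE2 and CRE3 gave 3.85 and the wild-type pairs at most 4.35. Without CRE1 the same 8 of the 10 genes kept their direction and call, Ccnd2 was also called, and the log2 fold change of Cdkn1a was 0.84 with a smaller adjusted p (2.68e-23, edgeR). Mfn2 itself stood at 60.0 ± 3.78 CPM for knockout libraries, with 107 ± 0.937 CPM for wild-type ones (SD, n = 3 each; log2 fold change −0.84, adjusted p = 2.24e-10, edgeR), so its transcript was reduced and not absent. CPM are library-scaled counts after TMM adjustment, which sets the libraries to a common effective size. All 11 chondrocyte markers examined were detected in both groups and all 11 were called lower in the knockout, and their summed level was 2892 to 3016 CPM per knockout library, with 8271 to 8480 CPM per wild-type library. The 12 macrophage markers examined summed to 288 to 300 CPM per knockout library, with 2883 to 2903 CPM per wild-type library, with all 12 called lower and none at 0 in all libraries. Lyz2 led that list at 229 ± 9.25 CPM for knockout libraries, with 1748 ± 24.9 CPM for wild-type ones. The immediate-early list summed to 1049 to 1085 CPM per knockout library, with 301 to 309 CPM per wild-type library, with 5 of 10 members called higher and 4 called lower. In the fibroblast and synovial lining list 6 of 10 genes were called higher and 3 lower. That list summed to 29394 to 30445 CPM per knockout library, with 22584 to 22788 CPM per wild-type library. As CPM these sums lay above the chondrocyte sums in both groups. CPM are not divided by gene length, so this does not rank the lists by amount of transcript. The part of these shifts in the results on the cell cycle genes was not tested. In bulk RNA, fewer cells of a type and less RNA per cell cannot be told apart.

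The sequences below show where the p53 binding consensus lies in front of Cdkn1a, the p53 target with the largest change among the 10 genes. RefSeq promoter windows (GRCm38.p6) of 250 bases before each annotated start were matched by symbol for 7 of the 10 genes. Ccnd1, Ccnd2 and Zmat3 had no entry. Cdkn1a has 2 annotated starts, 2790 bases apart on the plus strand of chromosome 17. Capitals mark the p53 element, a pair of adjoining half-sites of 10 bases each, found with 1 mismatch outside the half-site cores.
Cdkn1a, upstream start, chr17:29090729-29090978: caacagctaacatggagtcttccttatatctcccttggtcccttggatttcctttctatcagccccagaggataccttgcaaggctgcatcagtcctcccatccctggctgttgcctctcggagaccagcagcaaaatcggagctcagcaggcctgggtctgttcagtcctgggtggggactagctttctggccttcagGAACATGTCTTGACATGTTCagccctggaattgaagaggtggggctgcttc
Cdkn1a, downstream start, chr17:29093519-29093768: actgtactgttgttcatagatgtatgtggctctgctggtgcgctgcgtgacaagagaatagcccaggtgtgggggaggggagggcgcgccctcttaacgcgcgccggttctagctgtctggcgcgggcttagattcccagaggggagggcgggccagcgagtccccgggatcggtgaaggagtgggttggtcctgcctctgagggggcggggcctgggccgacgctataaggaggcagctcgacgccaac
The element starts at position −51 from the upstream start. It reads the same way on both strands by its consensus, so a single search covered both. Of 32536 distinct windows of all genes, 15 (0.05%) held such an element. Among the 10 genes Cdkn1a alone had a match, in 1 of 11 windows of 7 genes. Elements after a start, further upstream or with spaced half-sites were not searched, so a gene without a match may still have one.

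Of 28 other p53 targets examined, 21 had windows, and Rps27l, which encodes a ribosomal protein-like p53 target, was the gene with a match. Capitals mark the element again in its window on the plus strand of chromosome 9, at −117 from the second of its annotated starts. In the Cdkn2a line, on the minus strand of chromosome 4, capitals mark the letters TTTCCCGC, an E2F site, at −99 from the upstream of its 2 starts, which lie 12427 bases apart.
Rps27l, chr9:66946291-66946320: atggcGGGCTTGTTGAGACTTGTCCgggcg
Cdkn2a, chr4:89294700-89294729: ctctgggaagcTTTCCCGCgcgactgggga
On either strand, TTTCCCGC was in 0.9% of all windows. The other E2F letters searched, TTTGGCGC, were in 0.42% of windows and in none of the 10 genes' windows, and the AP-1 site TGANTCA was in 6.73% of windows and likewise in none of theirs. In the 10 genes no match overlapped another. A match describes letters in these windows and does not show binding, and the counts per gene do not separate transcripts by start.

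The D cyclins did not move together. Ccnd1 was lower in the knockout, Ccnd3 was higher, and Ccnd2 did not pass the test. Over all genes tested, 62.7% were called in either direction at an adjusted p under 0.05 (edgeR quasi-likelihood test with Benjamini-Hochberg adjustment), 30.7% higher and 32.1% lower. These shares are also the background for the counts of every other list given here. Of the 10 genes, 5 were called higher and 3 lower. Their libraries did not overlap between the groups for 8 of the 10, where 67.1% of all genes tested did not overlap. Both counts are near the background, so they say nothing particular about these genes as a set. Their median log2 fold change was 0.16, beside −0.02 over all genes tested.

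**Figure D1:**
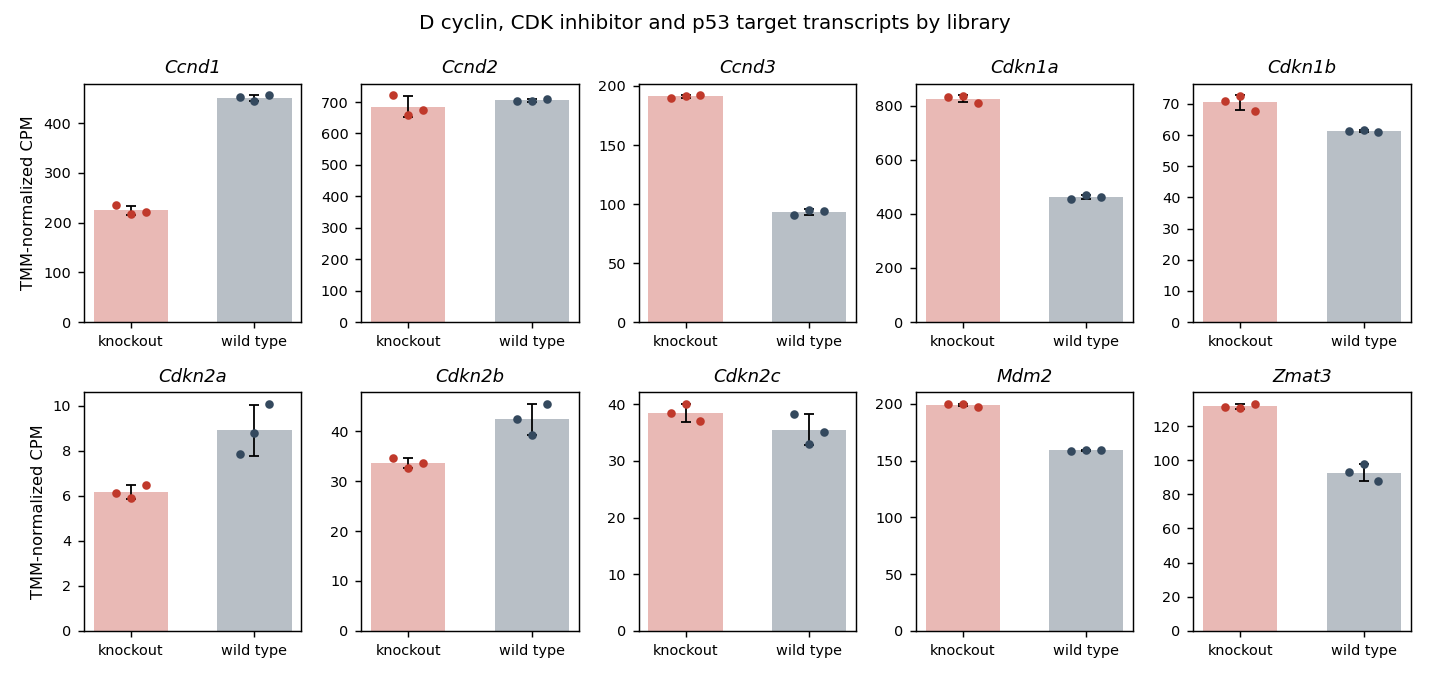
TMM-normalized CPM of the 10 genes in each library. Points are libraries, bars are means and error bars are SDs (n = 3), with the knockout on the left and the wild type on the right. Knockout and wild-type libraries overlap for Ccnd2 and Cdkn2c and are apart for the other 8 genes.

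Ccnd1 encodes cyclin D1, the D cyclin most tied to mitogen signals. It stood at 236, 217 and 221 CPM over CRE1 to CRE3 and at 452, 444 and 456 CPM over WT1 to WT3. Every knockout library lay below every wild-type library, and the log2 fold change was −1.01 (SE 0.034), a 2.01-fold lower level, with an adjusted p of 4.70e-13 in edgeR's test. A difference of this size was common here, since 3056 of the 15028 genes moved at least as far.

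Ccnd3 encodes cyclin D3, which is prominent in differentiated and blood cells. It stood at 190, 192 and 192 CPM over CRE1 to CRE3 and at 90.3, 94.6 and 94.2 CPM over WT1 to WT3. The knockout libraries all lay above the wild-type libraries, by a log2 fold change of 1.04 (SE 0.035), a 2.06-fold rise with an adjusted p of 4.77e-13 in edgeR's test.

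Ccnd2 encodes cyclin D2, another activator of CDK4 and CDK6. It stood at 722, 660 and 674 CPM over CRE1 to CRE3 and at 702, 704 and 710 CPM over WT1 to WT3. The groups overlapped because CRE1 lay above all wild-type libraries. The log2 fold change was −0.04 (SE 0.032, 95% interval −0.11 to 0.03) and was not called (adjusted p = 0.278, edgeR). Its call depended on the libraries and the scaling. Without CRE1 it was called lower (−0.08, adjusted p = 0.00537), without CRE2 the value was 0.00040, and with total counts alone it was −0.25 (adjusted p = 2.84e-06).

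Within a library, levels can be compared between genes only per length, so the authors' FPKM values (scaled to gene length and to library total) were used for the makeup of the D cyclins. By this measure Ccnd1 led in the wild type and came last in the knockout. Its share of the D cyclin sum was 27.7%, 26.9% and 26.99% in CRE1, CRE2 and CRE3, against 49.7%, 48.9% and 49.5% in the wild-type libraries. The share of Ccnd3 was 33.5%, 35.7% and 35.3% in CRE1, CRE2 and CRE3, against 14.9%, 15.6% and 15.3% in the wild-type libraries. That of Ccnd2 was 38.0% ± 0.747 among knockout libraries, with 35.3% ± 0.111 among wild-type libraries (SD, n = 3 each).

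The ratio of Ccnd3 to Ccnd1 does not depend on how libraries are scaled. On the FPKM scale it was 1.21, 1.32 and 1.31 in CRE1, CRE2 and CRE3, against 0.300, 0.320 and 0.310 in the wild-type libraries. Cyclin D3 transcripts thus outnumbered those of cyclin D1 per length in every knockout library and were below them in every wild-type library. The summed D cyclin level was 204 ± 4.50 FPKM among knockout libraries, with 260 ± 2.62 FPKM among wild-type libraries (SD, n = 3 each), with separate groups. CPM differ from these FPKM in the library scaling as well as in length. On CPM the sums lay closer, at 1101 ± 41.4 CPM for knockout libraries, with 1249 ± 9.68 CPM for wild-type ones. With FPKM brought to the TMM scaling, Ccnd2 stood at 83.1 ± 3.98 among knockout libraries, with 85.5 ± 0.524 among wild-type libraries. On that scale Ccnd1 stood at 59.6 ± 2.57 and 120 ± 1.53, and Ccnd3 at 76.2 ± 0.451 and 37.1 ± 0.945, in the same order.

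**Figure D2:**
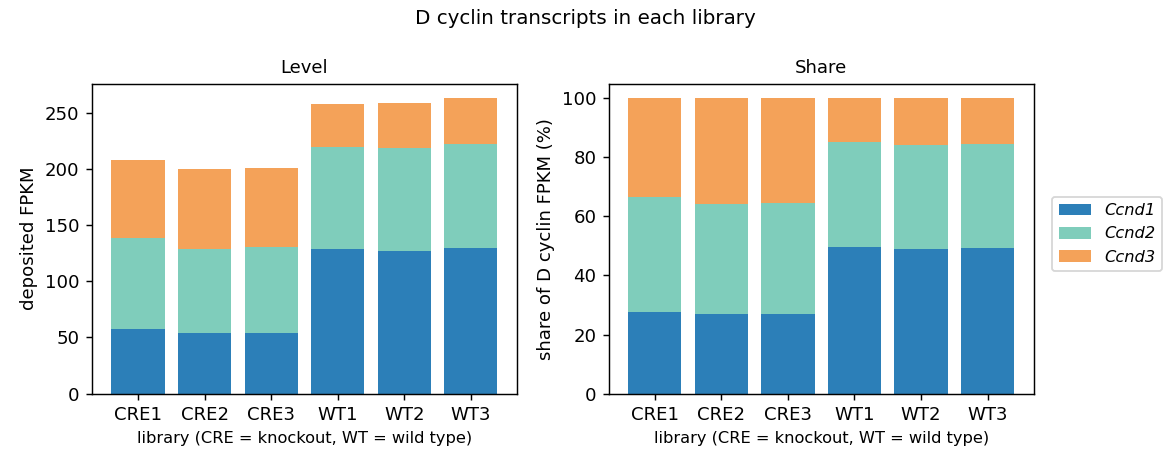
D cyclin transcripts in each library as deposited FPKM (left) and as shares of the D cyclin sum in percent (right). Knockout libraries are CRE1 to CRE3 and wild-type libraries WT1 to WT3. Ccnd1 takes 26.9% to 27.7% of the sum in the knockout libraries and 48.9% to 49.7% in the wild-type libraries, with the larger part of the difference taken up by Ccnd3.

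Among the CIP/KIP inhibitors, Cdkn1a rose and was the most abundant of the 10 genes per length in both groups. Cdkn1a encodes p21, which halts the cycle in G1 and is the best known p53 target. It stood at 832, 836 and 811 CPM over CRE1 to CRE3 and at 454, 469 and 462 CPM over WT1 to WT3. Each knockout library was above each wild-type library. The log2 fold change was 0.84 (SE 0.027), a 1.79-fold rise, with an adjusted p of 2.54e-13 in edgeR's test. Its ratio to Ccnd1 on the FPKM scale, which no scaling of libraries changes, was 6.82 ± 0.290 among knockout libraries, with 1.90 ± 0.049 among wild-type libraries.

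Cdkn1b encodes p27, an inhibitor that is regulated largely through degradation of the protein. It stood at 71.0, 72.6 and 67.9 CPM over CRE1 to CRE3 and at 61.2, 61.8 and 61.0 CPM over WT1 to WT3. The groups were separate on this scale, with a log2 fold change of 0.20 (SE 0.042, adjusted p = 6.78e-04, edgeR). The difference is as small as the choice of scaling, and with total counts alone it vanished (−0.00792, adjusted p = 0.876). As deposited FPKM, Cdkn1b stood at 27.2 ± 1.01 among knockout libraries, with 27.4 ± 0.183 among wild-type libraries. Cdkn1a made up 93.3% ± 0.116 of the FPKM of this pair of genes among knockout libraries, with 89.9% ± 0.112 among wild-type libraries.

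The INK4 genes among the 10 did not rise with Cdkn1a. Cdkn2a and Cdkn2b fell, and Cdkn2c was not called. Cdkn2a gives 2 products from separate starts, p16 and the MDM2 inhibitor p19ARF, and its gene count holds both. It stood at 6.12, 5.91 and 6.48 CPM over CRE1 to CRE3 and at 7.86, 8.79 and 10.1 CPM over WT1 to WT3, from 178 to 209 reads per knockout library and 335 to 436 per wild-type library. It was the least abundant of the 10 genes per length, its knockout libraries all lay below the wild-type libraries, and the wild-type libraries spread wide for their level. On the log2 scale it fell by 0.53 (SE 0.117, adjusted p = 9.52e-04, edgeR).

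Cdkn2b encodes p15, which is induced by TGF-beta in many cells and lies beside Cdkn2a on chromosome 4. It stood at 34.6, 32.6 and 33.6 CPM over CRE1 to CRE3 and at 42.5, 39.3 and 45.5 CPM over WT1 to WT3. Again the knockout libraries were all below the wild-type libraries. On the log2 scale it fell by 0.34 (SE 0.058, adjusted p = 1.10e-04, edgeR), and its log2 fold change was −0.55 with total counts alone. Against a 1.2-fold change it was not called (adjusted p = 0.0823). The ratio of Cdkn2b to Cdkn2a on the FPKM scale was 4.45 ± 0.199 among knockout libraries, with 3.91 ± 0.429 among wild-type libraries, with overlapping groups.

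Cdkn2c encodes p18. It stood at 38.5, 40.1 and 37.0 CPM over CRE1 to CRE3 and at 38.4, 33.0 and 35.2 CPM over WT1 to WT3. The groups overlapped through WT1, and the log2 fold change of 0.12 (SE 0.060, 95% interval −0.01 to 0.25) was not called (adjusted p = 0.0993, edgeR). Without CRE3 it was 0.16 (adjusted p = 0.0487), without WT1 it was 0.18 (adjusted p = 0.0270), and with total counts alone its sign turned (−0.09, adjusted p = 0.195).

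The CDK inhibitor genes outside the 10 also went both ways. Cdkn1c, the imprinted gene of p57, an inhibitor prominent in hypertrophic chondrocytes, fell to 24.1 ± 2.39 CPM in knockout libraries, with 61.0 ± 0.948 CPM in wild-type libraries (log2 fold change −1.34, SE 0.062, adjusted p = 2.49e-11, edgeR). Cdkn2d, which encodes the INK4 protein p19INK4d, rose to 27.1 ± 1.82 CPM in knockout libraries, with 12.7 ± 0.621 CPM in wild-type libraries (1.09, SE 0.072, adjusted p = 2.21e-09, edgeR). Cdkn3, a phosphatase that acts on CDKs and is made in dividing cells, fell to 0.593 ± 0.062 CPM in knockout libraries, with 3.19 ± 0.235 CPM in wild-type libraries (−2.42, SE 0.235). The CIP/KIP and INK4 families thus each held genes called in opposite directions.

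The p53 targets Mdm2 and Zmat3 were higher in the knockout by less than Cdkn1a was. Mdm2 stood at 200, 199 and 198 CPM over CRE1 to CRE3 and at 159, 159 and 160 CPM over WT1 to WT3. The groups were well apart because the libraries of each agreed within 1.15 CPM (SD). The log2 fold change was 0.32 (SE 0.031), a 1.25-fold rise, with an adjusted p of 2.11e-07 in edgeR's test. With total counts alone it was 0.11 (adjusted p = 0.0041), so the size of this rise rests on the scaling.

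Zmat3 encodes an RNA-binding zinc finger protein. It stood at 131, 130 and 133 CPM over CRE1 to CRE3 and at 93.1, 97.5 and 87.8 CPM over WT1 to WT3. The knockout libraries all lay above the wild-type libraries, with a log2 fold change of 0.50 (SE 0.042), a 1.42-fold rise (adjusted p = 3.62e-08, edgeR). With total counts alone it was 0.29 (adjusted p = 1.70e-05). On the FPKM scale Cdkn1a exceeded Mdm2 by a ratio of 15.1 ± 0.163 among knockout libraries, with 10.6 ± 0.164 among wild-type libraries. Its ratio to Zmat3 was 25.1 ± 0.668 among knockout libraries, with 19.9 ± 0.987 among wild-type libraries. The 3 p53 targets therefore did not rise in proportion.

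The transcript of p53 itself was not called. Trp53 stood at 62.7, 65.0 and 62.6 CPM over CRE1 to CRE3 and at 60.4, 64.4 and 63.1 CPM over WT1 to WT3, and the groups overlapped (log2 fold change 0.02, SE 0.044, adjusted p = 0.731, edgeR). With total counts alone it was called lower (−0.19, adjusted p = 0.00141). Of 11 genes of p53 and its regulators, 4 were called higher, 4 lower and 3 neither, with a median log2 fold change of 0.04, and with total counts alone 2 were higher and 5 lower. The main counts are near the shares over all genes tested, 30.7% higher and 32.1% lower. Hipk2, a kinase that phosphorylates p53, rose to 483 ± 20.7 CPM in knockout libraries, with 189 ± 9.91 CPM in wild-type libraries (1.36, SE 0.041). Usp7, which removes ubiquitin from MDM2 and p53, rose (0.48), and Mdm4, the partner of MDM2 that restrains p53, fell (−0.52). Chek1, a checkpoint kinase also made in dividing cells, fell (−1.21).

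The wider set of p53 targets gave no single direction. Of 28 genes outside the 10, 13 were called higher, 6 lower and 9 neither, with a median log2 fold change of 0.13, where 30.7% of all genes tested were called higher and 32.1% lower. The split turned with the scaling, to 3 higher and 12 lower with total counts alone. In the test against a 1.2-fold change it was 2 higher and 6 lower. Plk2, a kinase of the stress response, rose to 120 ± 3.33 CPM in knockout libraries, with 76.1 ± 1.18 CPM in wild-type libraries (0.66, SE 0.038). Btg2, an antiproliferative cofactor, rose to 63.0 ± 0.950 CPM in knockout libraries, with 39.4 ± 3.20 CPM in wild-type libraries (0.68, SE 0.055). Sesn1, a stress-induced inhibitor of mTORC1, fell to 18.0 ± 1.04 CPM in knockout libraries, with 40.8 ± 0.213 CPM in wild-type libraries (−1.18, SE 0.057). Perp, a membrane protein of apoptosis and desmosomes, fell to 3.69 ± 0.714 CPM in knockout libraries, with 19.0 ± 1.26 CPM in wild-type libraries (−2.37, SE 0.119).

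The larger p53-target changes were falls, since no target in this list rose past 0.68 on the log2 scale. The apoptosis gene Pmaip1 (−1.36) and the stress cytokine Gdf15 (−2.16), chosen after their values were seen, fell alongside Perp and Sesn1. Both were scarce. Pmaip1 had a mean of 3.09 CPM in knockout libraries and 7.94 CPM in wild-type libraries, and Gdf15 had 1.49 and 6.69 CPM. Rps27l, whose window before its second annotated start holds the printed p53 element, had a log2 fold change of 0.14 (SE 0.052, adjusted p = 0.0261, edgeR).

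**Figure D3:**
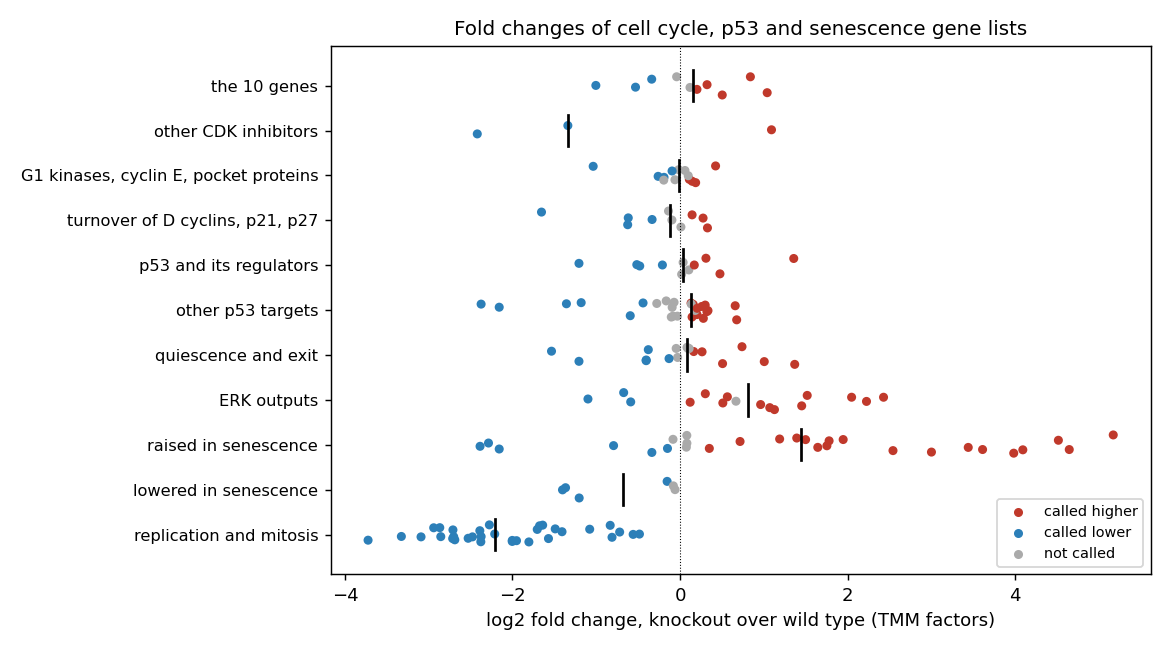
Log2 fold changes of the tested genes of each list, knockout over wild type with TMM factors. Each point is a gene, coloured by its call at an adjusted p under 0.05, and black bars are list medians. The 10 genes, the other p53 targets (median 0.13) and the genes of quiescence (0.08) spread on both sides of 0, while all 33 genes of replication and mitosis lie below it.

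Over the same libraries the genes of replication and mitosis were lower. All 33 of 33 were called lower, with a median log2 fold change of −2.21 (over the other settings 31 to 33). Mki67, a protein of dividing cells, stood at 6.09 ± 1.25 CPM for knockout libraries, with 81.0 ± 2.91 CPM for wild-type ones. Rrm2, a subunit of ribonucleotide reductase, stood at 15.98 ± 0.574 CPM for knockout libraries, with 83.7 ± 1.06 CPM for wild-type ones. Ccna2 (−3.33) and Mcm6 (−2.003) also fell. The summed chondrocyte and macrophage markers given above were lower in the same libraries, and their part in this fall was not tested.

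The kinases, cyclin E genes and pocket proteins of the G1 to S step changed far less. Of 13 genes, 4 were called higher, 4 lower and 5 neither, with a median log2 fold change of −0.02, and with total counts alone the split was 1 higher and 9 lower. Without WT1 it was 2 higher and 2 lower, and without WT2 or WT3 also 2 were lower, as with DESeq2. Against a 1.2-fold change 1 was higher and 1 lower, and on unfiltered log2(FPKM + 1) 0 were higher and 7 lower (limma). With TMM factors the counts are near the shares over all genes tested, 30.7% higher and 32.1% lower. Rbl1, the pocket protein p107, which is itself made in cycling cells, fell to 9.85 ± 2.31 CPM in knockout libraries, with 20.3 ± 1.44 CPM in wild-type libraries (−1.04, SE 0.124). The retinoblastoma gene Rb1 rose to 48.0 ± 4.35 CPM in knockout libraries, with 35.8 ± 1.79 CPM in wild-type libraries (0.42, SE 0.064), a call lost on unfiltered log2(FPKM + 1) (adjusted p = 0.0855, limma). Cdk6, a partner of the D cyclins, was lower by a small margin (−0.26, SE 0.052), a call lost against a 1.2-fold change (adjusted p = 0.465, edgeR). Cdk7, part of the kinase that activates CDKs, was called higher with TMM factors (0.19) but its sign turned to −0.02 on total counts alone (adjusted p = 0.624).

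Of 10 genes that set the turnover of D cyclins, p21 and p27 proteins, 3 were called higher, 4 lower and 3 neither, with a median log2 fold change of −0.12 (over the other settings 0 to 3 higher and 3 to 7 lower). The counts in the main fit are near the background of 30.7% higher and 32.1% lower. Dtl, the substrate receptor of a ligase that degrades p21 in S phase, fell to 3.69 ± 0.609 CPM in knockout libraries, with 11.6 ± 0.618 CPM in wild-type libraries (−1.65, SE 0.123). Cks1b, the cofactor for degradation of p27, fell (−0.63). Gsk3b, which phosphorylates cyclin D1 for export and degradation, and Cop1, a ligase for p53 and other factors, were called higher with TMM factors (0.33 and 0.27), but with total counts alone Cop1 was not called (0.07, adjusted p = 0.193), and Gsk3b was not called on unfiltered log2(FPKM + 1) (adjusted p = 0.0985, limma).

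Genes of quiescence and cell cycle exit went both ways, with 6 of 17 called higher, 6 lower and 5 neither and a median log2 fold change of 0.08 (with total counts alone 4 higher and 9 lower, without WT1 3 lower, and against a 1.2-fold change 2 lower). Both main counts are near the shares over all genes tested (30.7% higher and 32.1% lower), so they say nothing particular about this list. Ccng2, an atypical cyclin of arrested cells, rose to 124 ± 4.67 CPM in knockout libraries, with 48.2 ± 2.04 CPM in wild-type libraries (1.37, SE 0.045). The antiproliferative cofactor Btg1 rose to 244 ± 4.23 CPM in knockout libraries, with 122 ± 2.76 CPM in wild-type libraries (1.00, SE 0.033), and the transcription factor Foxo3 rose (0.74). Gas1, a membrane protein of growth arrest and a hedgehog co-receptor, fell to 517 ± 8.13 CPM in knockout libraries, with 1497 ± 21.9 CPM in wild-type libraries (−1.53, SE 0.025).

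Transcriptional outputs of ERK signalling, one of the inputs to Ccnd1, were mostly higher while Ccnd1 was lower. Of 16 genes, 12 were called higher, 3 lower and 1 neither, with a median log2 fold change of 0.81 (over the other settings 8 to 12 higher and 2 to 4 lower). Beside these counts, 30.7% of all genes tested were called higher and 32.1% lower. Fosl1, an AP-1 subunit, rose to 31.9 ± 2.80 CPM in knockout libraries, with 5.93 ± 0.079 CPM in wild-type libraries (2.43, SE 0.081). Myc rose to 60.1 ± 0.469 CPM in knockout libraries, with 21.99 ± 0.919 CPM in wild-type libraries (1.45, SE 0.050). The ERK pathway inhibitors Spred2 (1.52) and Spry2 (1.07) also rose. The summed immediate-early list was higher in the same libraries. Of its 10 genes, 5 were called higher and 4 lower, with a median log2 fold change of 0.16. The part of that list in these rises was not tested.

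Of 28 tested genes known to be raised in senescent cells, 18 were called higher, 6 lower and 4 neither, with a median log2 fold change of 1.45, and the other 2 of the 30 in the list were too low to test. Over all genes tested the shares were 30.7% higher and 32.1% lower. Genes of this list with the smallest p included the secreted proteases Mmp3 (4.51) and Mmp13 (3.44) and the chemokine Cxcl1 (3.98). These genes are also known products of inflamed chondrocytes. The 6 genes of the list called lower were Plau (−2.39), Igfbp5 (−2.29), Gdf15 (−2.16), Igfbp4 (−0.79), Hgf (−0.34) and Icam1 (−0.15). The lysosomal genes Glb1, which encodes the senescence-associated beta-galactosidase, and Fuca1, both chosen after their values were seen, were not called (0.08, SE 0.037, and 0.08, SE 0.036). Of 6 genes known to be lowered in senescent cells, 4 were called lower and none higher, with a median of −0.68. The nuclear lamina gene Lmnb1 fell to 4.35 ± 0.371 CPM in knockout libraries, with 11.2 ± 1.55 CPM in wild-type libraries (−1.37, SE 0.126). Hells (−1.40) and Ezh2 (−1.204), chromatin genes also made in dividing cells, fell, and Hmgb1 had −0.15 (SE 0.047), a call lost against a 1.2-fold change (adjusted p = 1).

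In order of FPKM, Cdkn1a led in both groups, at 377 ± 7.05 among knockout libraries, with 244 ± 4.16 among wild-type libraries (SD, n = 3 each). In the knockout Ccnd2, Ccnd3 and Ccnd1 followed, at 77.3 ± 3.24, 70.9 ± 0.814 and 55.4 ± 2.07 FPKM, and in the wild type Ccnd1, Ccnd2 and Ccnd3 followed, at 129 ± 1.70, 91.9 ± 0.706 and 39.9 ± 1.07 FPKM. Mdm2 stood at 24.9 ± 0.207 FPKM among knockout libraries, with 23.1 ± 0.110 FPKM among wild-type libraries. Cdkn2b stood at 22.4 ± 0.516 FPKM in the knockout, below Cdkn1b and Mdm2, and at 32.8 ± 2.41 FPKM in the wild type, above both. The lowest places were held by Zmat3, at 15.1 ± 0.162 FPKM among knockout libraries, with 12.3 ± 0.641 FPKM among wild-type libraries, and by Cdkn2a, at 5.05 ± 0.227 FPKM among knockout libraries, with 8.43 ± 1.07 FPKM among wild-type libraries. Neighbours in either order did not overlap between libraries, and Cdkn2c and Zmat3 in the knockout came nearest to it, at 15.2 FPKM for both in CRE3.

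The genes whose profile over the 6 libraries lay nearest to that of Cdkn1a were Ppard, Wbp1l and Fzd1. The measure was the root mean square difference of log2 CPM after each gene was centred on its mean, at 0.018 for Ppard and Wbp1l and 0.019 for Fzd1. Beside the 0.84 of Cdkn1a, their log2 fold changes were 0.83 for Ppard, 0.84 for Wbp1l and 0.86 for Fzd1. The measure spans both groups, so genes chosen by it have like fold changes by construction. Shared regulation was not tested.

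The scaling of the libraries moved all 10 genes by a like amount. With total counts alone the median of all genes shifted by −0.21 on the log2 scale, so smaller changes are to be read against this shift. Ccnd1, Ccnd3, Cdkn1a, Cdkn2a, Mdm2 and Zmat3 kept their direction and their call under all 19 other settings, and Cdkn2b did in 18 of 19. Those of Ccnd2, Cdkn1b and Cdkn2c did not.

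**Figure D4:**
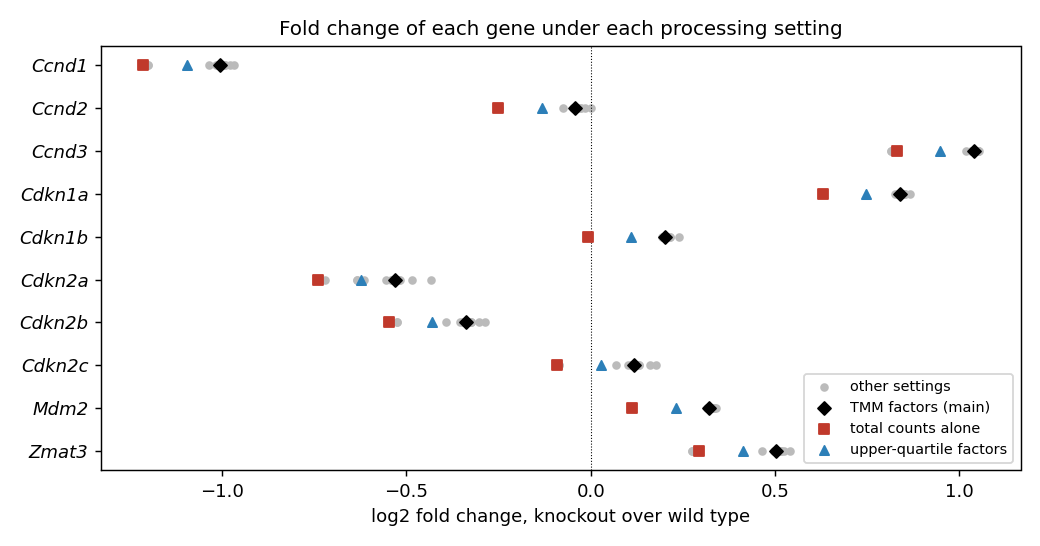
Log2 fold change of each gene, knockout over wild type, under each processing setting. Black diamonds are TMM factors, red squares total counts alone, blue triangles upper-quartile factors and grey points the other settings. Ccnd1 spans −1.21 to −0.97 and Ccnd3 spans 0.81 to 1.05 over the other settings, while Cdkn1b and Cdkn2c reach both sides of 0.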

How the data were processed

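Per the labels' protocols, TRIzol was used for RNA and a VAHTS V6 kit for libraries. Reads went through fastp, HISAT2 and HTSeq on GRCm39, per the submitters' processing notes. Their versions, the annotation and the strand setting are not given in the sources used, so overlapping and antisense genes are not resolved. The authors deposited whole-number read counts per gene and FPKM values (scaled to gene length and library total). Wild-type columns matched sample titles. Knockout columns showed their group but not which sample, and were used as replicates of the group. Within each group, libraries were further apart than counting noise (chi-square per degree of freedom between 3.19 and 8.09, highest for the pairs with CRE1).

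Counts were tested by the two-sided quasi-likelihood test of edgeR 4.0.16 (R 4.3.3), with TMM factors, group as the sole term and a minimum count of 10 in filterByExpr, with Benjamini-Hochberg adjustment over all 15028 genes tested. A gene was called, and named as higher, lower, rising or falling, at an adjusted p under 0.05. The SE is the size of the log2 fold change divided by the square root of F. The depth is in the report, and the biological coefficient of variation was 4.88%. FPKM were used to compare genes within a library. Other settings were DESeq2 1.42.0, limma 3.58.1 (voom, and log2(FPKM + 1) and log2(FPKM + 0.1) with a mean FPKM of at least 1, the first also unfiltered), other scalings and filters, a 1.2-fold threshold, each library left out, and a replicate block.

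On simulated counts of 14855 genes in this comparison, the test recovered 62% at 1.2-fold, 96% at 1.5-fold and 100% at 2-fold (50 genes each), and 3.76% of calls were unchanged genes. The simulation changed few genes, so it does not cover data in which most genes change.

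The 10 genes and all lists were chosen with earlier results of these data known. Named besides the 10 were Mfn2, Trp53, all other CDK inhibitors, the 4 genes of each pathway list with the smallest p, leading genes of marker lists, and the 3 profiles nearest to Cdkn1a. A gene that this rule names is not reported here. The marker lists of osteoblasts (5 of 5 tested genes called lower), endothelium (1 higher and 2 lower of 5), lymphocytes and neutrophils (2 higher of 3) and pericytes (3 lower of 5) were also examined. Osteoblast calls were 3 without CRE2 or WT1, no endothelial gene was higher without either, and 1 pericyte gene was higher without CRE1. The leading genes of these lists were Ibsp (log2 fold change −3.63), Tek (−0.14), Camp (4.25) and Cspg4 (−0.88).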

Additional observations from a re-analysis of the deposited data

How the results depend on the processing

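Of 190 values of the 10 genes under 19 other settings, 171 kept their direction and side of the threshold. Counts over all genes tested moved by more than 1.5 times in these cases. With total counts alone 2789 were called higher and 7627 lower. Against a 1.2-fold change 2724 were called higher and 3132 lower. On log2(FPKM + 1) 2354, on log2(FPKM + 0.1) 2345 and on unfiltered log2(FPKM + 1) 2706 were called higher, the last with 7328 lower. The share of calls that were rises was 48.9% by TMM, 38.0% by upper quartile and 26.8% by total counts. Signs turned in these cases. With single libraries left out, Ccnd2 ranged from −0.075 (without CRE1) to 0.00040 (without CRE2), Trp53 from −0.00836 (without WT1) to 0.041 (without CRE3) and Tek from −0.31 (without CRE1) to 0.12 (without CRE2). With total counts alone, on log2(FPKM + 1), log2(FPKM + 0.1) and unfiltered log2(FPKM + 1), in that order, Cdkn1b was −0.00792, −0.00863, −0.00894 and −0.00863, Cdkn2c was −0.0906, −0.0847, −0.0892 and −0.0847, Trp53 was −0.19, −0.18, −0.19 and −0.18, and Cdk7 was −0.0235, −0.0208, −0.0227 and −0.0208. Trp53 was also −0.072 with upper-quartile factors. The cause of these turns was not tested beyond the shift of the median. TMM-scaled CPM in place of FPKM change both the division by length and the library scaling. On them the log2 ratio of the D cyclin sum was −0.18 (FPKM −0.36). A share within a library does not depend on the library scaling, so for shares only the division by length differs. The difference in share was −15.7 percentage points for Ccnd1 (FPKM −22.2), 5.76 for Ccnd2 (FPKM 2.64) and 9.93 for Ccnd3 (FPKM 19.5). With each library left out in turn, 5 to 6 of the 10 genes were called higher and 3 to 4 lower, and 4264 to 4773 of all genes higher and 4396 to 4774 lower.

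The knockout column numbers are not tied to samples. Same-numbered libraries did not deviate together (correlations of −0.0857, 0.0553 and −0.0954 across genes), and the largest value was 0.149, for CRE1 with WT3. These values cannot show whether libraries were paired or shared a batch, which was not tested. With a replicate block on the column numbers, 4437 genes were called higher and 4657 lower, and 5 of the 10 genes higher and 3 lower. Depth limits Cdkn2a most, at 178 to 436 reads per library. Beyond the comparison of library pairs and the fits without each library, groups of 3 libraries were not tested for outlying libraries.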
